A study of Mus musculus with 20 samples.

Results

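Integrins and laminins are the 2 gene families described here, chosen by symbol: mouse protein-coding genes named Itga or Itgb with their number or letter, and Lama, Lamb or Lamc with their number. The rule found 37 genes, 26 of integrins and 11 of laminins, among 21896 protein-coding genes. C/EBPβ peaks were taken where their midpoint lay inside a gene's span or within 50 kb of it, and peaks overlapping by at least 1 bp were merged into sites. This gave 332 of 66428 peaks and 113 sites, where merging every peak of the series gave 23854. Of the 37 genes, 32 had at least 1 site.

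The peaks come from C/EBPβ ChIP-seq (chromatin immunoprecipitation with sequencing) in mouse preadipocytes of the line 3T3-L1, grown to confluence and then held under contact inhibition. Every group carries a doxycycline-inducible C/EBPβ: the wild-type LAP form (WT) or a form mutated at its PARylation sites (Mut), the residues that take up poly(ADP-ribose). The 5 conditions are WT with vehicle (WT −Dox), Mut with vehicle (Mut −Dox), WT with 1 µg/ml doxycycline for 8 h (WT +Dox), Mut with the same doxycycline (Mut +Dox) and WT given the PARP inhibitor BYK204165 1 h before doxycycline (WT +Dox +BYK). Where 5 values follow each other below, they are in this order. Each condition has 2 ChIP and 2 input libraries but a single deposited peak list, so replicate spread is unknown for every comparison and p-values are left out. Whether a line is a clone is not given in the sources used here. The antibody was to C/EBPβ itself, so endogenous and induced protein are not told apart. The lists hold between 6898 (Mut −Dox) and 18371 peaks (WT +Dox +BYK), and their sequencing depth is unknown. A longer list can hold more sites near any gene, so the comparisons between conditions stand beside the same values for all genes. A longer gene can hold more sites too, and the 37 genes have a median span of 62.5 kb against 17.1 kb over all genes. Of the 113 sites, 47.8%, 31.0%, 53.1%, 79.6% and 78.8% had a peak in the 5 lists, against 45.5%, 28.8%, 51.5%, 74.5% and 76.4% of all sites. Counts of single genes and small groups by list can vary with list length too and have no baseline of their own. The cell type could not be checked against marker expression, since peak lists hold none.

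An integrin is a receptor made of an alpha and a beta chain that spans the cell membrane and ties the matrix outside to the actin skeleton inside. Laminins are secreted trimers of an alpha, a beta and a gamma chain that form the sheet of the basement membrane, and some integrins bind them. Fibroblast-like preadipocytes sit in a fibronectin-rich matrix, and mature fat cells each lie in a basement membrane, and the matrix is known to be remodelled in adipogenesis. C/EBPβ is a bZIP factor that acts early in that program.

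Promoter sequence could be set against the peaks for 23 of the 37 genes, in 26 windows from 250 bases before to 50 bases after a start (RefSeq, GRCm38.p6, the coordinates of mm10). Itga1, the alpha chain of a collagen receptor, was the 1 gene with its whole window under a peak, and that held in all 5 lists. The site near Itgal and 1 of those near Lamb1 instead covered the promoters of neighbouring genes, Sephs2 (a selenium metabolism enzyme) in 4 lists and Dld (a mitochondrial dehydrogenase subunit) in WT −Dox and WT +Dox +BYK. The 250 bases before the start are shown 5′ to 3′ for these genes, all on the minus strand, to set the covered Itga1 promoter beside the covered neighbour promoters that hold a C/EBP-like match. Capitals mark that match, TTGCNNAA on either strand, and Itga1 has none.
Itga1, chr13:115101965-115102214: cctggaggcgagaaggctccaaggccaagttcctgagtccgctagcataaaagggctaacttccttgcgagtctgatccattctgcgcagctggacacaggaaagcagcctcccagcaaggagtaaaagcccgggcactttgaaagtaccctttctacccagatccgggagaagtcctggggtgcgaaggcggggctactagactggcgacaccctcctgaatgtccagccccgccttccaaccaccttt
Sephs2, chr7:127274060-127274309: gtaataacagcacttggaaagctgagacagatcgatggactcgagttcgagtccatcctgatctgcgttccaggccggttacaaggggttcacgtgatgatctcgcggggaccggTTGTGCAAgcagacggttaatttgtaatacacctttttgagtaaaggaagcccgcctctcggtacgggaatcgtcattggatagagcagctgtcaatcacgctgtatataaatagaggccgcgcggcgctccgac
Dld, chr12:31351472-31351721: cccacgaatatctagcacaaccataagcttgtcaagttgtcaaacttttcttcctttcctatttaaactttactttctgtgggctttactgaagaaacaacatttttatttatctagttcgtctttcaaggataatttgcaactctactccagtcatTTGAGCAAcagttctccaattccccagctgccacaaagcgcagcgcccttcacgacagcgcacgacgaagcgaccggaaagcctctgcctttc

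Both strands of each window were searched for 4 sequences. TTGCGCAA, the C/EBP palindrome, was in 0.183% of the 32817 windows of the table, TTGCNNAA, which includes it, in 10.8%, TGATGCAA, a C/EBP-ATF composite, in 0.896% and the AP-1 sequence TGANTCA in 7.81%. None of the 26 integrin and laminin windows held any of the first 3. The Itga1 window therefore carried a peak in every condition without a match, while those of Sephs2 and Dld each held 1 match to TTGCNNAA. The windows of Fam229b and Tube1, neighbours of Lama4 that were also wholly under a site, held 0 matches. Covered windows thus occurred with and without a match. A match is only a run of letters, and its absence says nothing about binding elsewhere under the peak.

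More sites lay inside the genes than at their starts, though spans are far longer than the promoter windows. Of the 113 sites, 64 (56.6%, Wilson 95% interval 47.4 to 65.4) had their midpoint inside the span of an integrin or laminin gene, 13 inside another gene only and 36 outside all protein-coding genes. Inside any protein-coding gene lay 77 (68.1%, 59.1 to 76.0), against 62.2% of the 18517 sites of the series with a midpoint within 50 kb of such a gene. Intervals cover counting error only, and neighbouring sites are not independent. Besides Itga1, a site touched a promoter window at Itgb8, where the merged site overlapped 8 bases and only the Mut +Dox peak reached them. The Itgb7 window had a site 460 bp from its start, and the next nearest were 4728 bp from the Itgav start and 5172 bp from the Itga4 start. For 23 sites (20.4%) the nearest gene was not an integrin or laminin gene. The sites were 523 to 2511 bp wide, with a median of 936 bp against 926 bp over all sites.

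**Figure D1:**
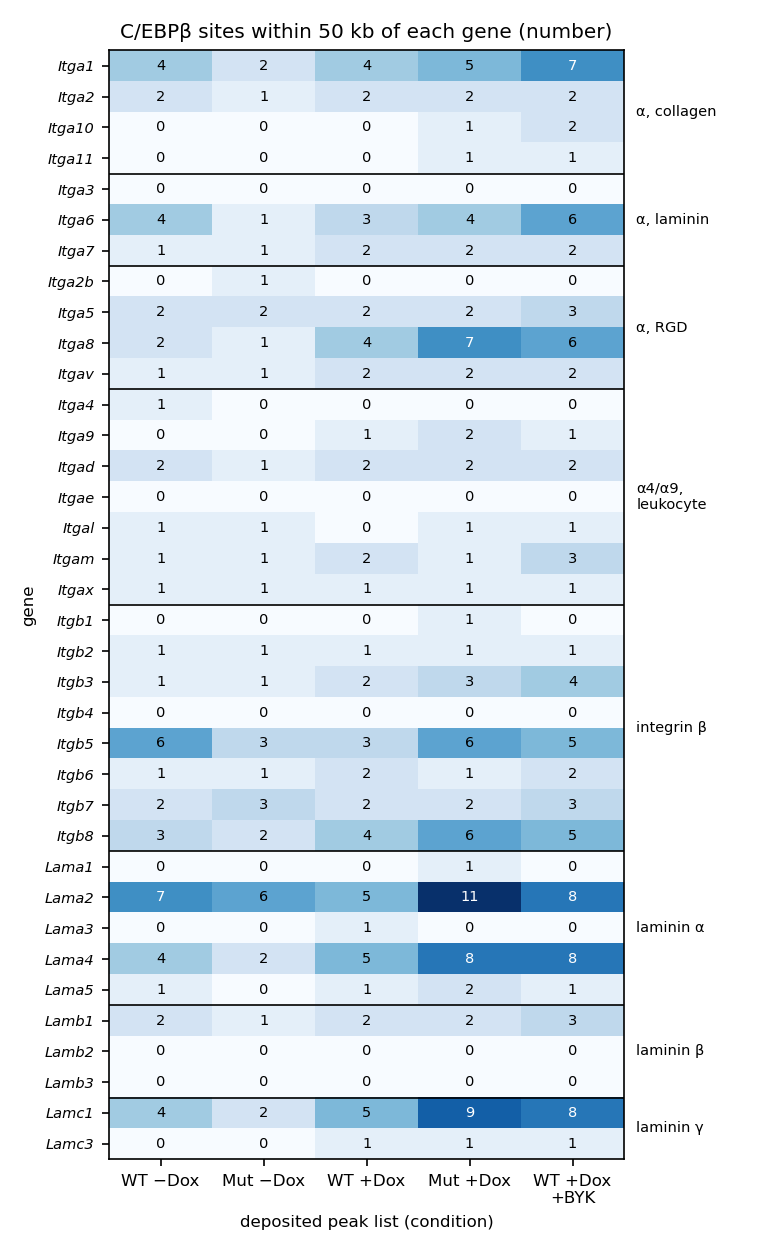
Number of C/EBPβ sites within 50 kb of each gene described here (rows, grouped by role) in each of the 5 deposited lists (columns); the colour deepens from 0 to 11 sites. Lama2 and Lamc1 hold the darkest cells, 11 and 9 sites in Mut +Dox, and 5 rows are 0 throughout.

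The collagen-binding alpha chains had 11 sites in all, of which 5, 2, 5, 8 and 11 were in the 5 lists. Itga1 had 4, 2, 4, 5 and 7 sites. Its promoter site (chromosome 13, 115101266 to 115102430) scored 189, 124, 411, 310 and 510, and stood at percentile 95.1 of the WT +Dox list. The score is the authors' own value for a peak, from about 50 upward, its scale is not named in the file, and it serves here only to rank peaks within a list, not to compare lists. Itga2, a collagen receptor chain next to Itga1 that shares 1 of its sites, had 2, 1, 2, 2 and 2. Its other site, 46.3 kb from the span and closer to Mocs2, stood at percentile 95.3 of WT +Dox +BYK and was absent from Mut −Dox. Itga10, a collagen receptor chain of cartilage, had 0, 0, 0, 1 and 2 sites, and each lay nearest another gene.

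Among the laminin-binding alpha chains, Itga3 had no site within 50 kb in any list. Itga6, the chain that replaces Itga5 as preadipocytes differentiate, had 4, 1, 3, 4 and 6 sites. The 1 Itga6 site common to all 5 lists (chromosome 2, 71774649 to 71775720) lay 11.7 kb outside the span. It stood at percentiles 57.0, 26.6, 50.2, 91.3 and 71.9 of the lists. Itga7, a laminin receptor chain of muscle, had 1, 1, 2, 2 and 2 sites. The site of Itga7 in all lists (chromosome 10, 128979841 to 128981746) ranked high, at percentile 98.4 of WT +Dox +BYK, but lies nearer the olfactory receptor gene Olfr9.

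The RGD-binding alpha chains recognise the short motif of fibronectin and related proteins. Itga8, which pairs with Itgb1, had 2, 1, 4, 7 and 6 sites. Its strongest site lay inside the gene (chromosome 2, 12174506 to 12175403) and was absent from Mut −Dox. It stood at percentile 37.9 of WT −Dox and at percentiles 91.4, 88.9 and 91.0 of the 3 lists with doxycycline. Itga5, the fibronectin receptor chain, had 2, 2, 2, 2 and 3 of its 4 sites. These were not the same sites from list to list, and only 1 was in all 5. Itgav had 1, 1, 2, 2 and 2. Itga2b, the platelet chain, had a single site, in Mut −Dox only, at the promoter of Slc25a39.

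Genes of the leukocyte integrins (Itgal, Itgam, Itgax, Itgad, Itgae, Itgb2 and Itgb7) are those that preadipocytes are not known for. Together they had 10 sites, with 7 in each of WT −Dox, Mut −Dox, WT +Dox and Mut +Dox and 10 in WT +Dox +BYK. Those 4 lists range from 6898 to 17816 peaks in length. The 7 were not the same sites in each, and 5 of the 10 were in all 5 lists. Only 3 of the 10 lay inside one of these genes, at Itgb2, Itgam and Itgb7, and each of those had a peak in every list. The other 7 lay in or nearest other genes. Itgae had no site. Itga4, whose product homes lymphocytes, had 1 site in WT −Dox alone, with a score of 66.8, and Itga9 had 0, 0, 1, 2 and 1.

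Of the beta chains, Itgb1, the common partner of most alpha chains, had 1 site in Mut +Dox only, with a score of 68.1, and Itgb4, the hemidesmosome chain, had none. Itgb5, which pairs with Itgav, had 6, 3, 3, 6 and 5 sites. Its site 1.85 kb beyond the span (chromosome 16, 33950696 to 33951672) was in all lists, at percentiles 93.7, 87.4, 96.6, 98.5 and 99.4. The Itgb5 sites that WT +Dox lacked and WT −Dox held were weak, with scores of 51.4, 59.4 and 65.6 where that list began at 50.02. Itgb8, a chain that with Itgav activates latent TGF-β, had 3, 2, 4, 6 and 5 sites, and Itgb3, another Itgav partner, had 1, 1, 2, 3 and 4. The strongest Itgb8 site (chromosome 12, 119163694 to 119165136) lay at the end of the gene far from its start. It stood at percentiles 94.7, 89.3, 71.1, 91.0 and 88.9 of the lists. Itgb7, a lymphocyte chain, had 2, 3, 2, 2 and 3. The site over the boundary of its span on the side of its start (chromosome 15, 102232395 to 102233515) was in all 5 lists. A higher ranked Itgb7 site (chromosome 15, 102243091 to 102244205), with scores of 460, 368, 420, 513 and 402, lies nearest Rarg, a retinoic acid receptor gene.

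Laminin alpha chain genes held 24 sites, of which 12, 8, 12, 22 and 17 were in the 5 lists. Lama2, the alpha chain of muscle and nerve basement membranes, has the longest span of the 37 genes (636 kb on chromosome 10) and had 7, 6, 5, 11 and 8 sites, all but 1 of its 11 inside the gene. Of these, 4 were in all lists. Lama4, an alpha chain of vessel and fat basement membranes, had 4, 2, 5, 8 and 8 sites. Its site inside the gene (chromosome 10, 38993674 to 38995753) was the highest ranked of all 113. It scored 398, 395, 870, 1211 and 1115, at percentiles 92.8, 92.5, 99.7, 99.8 and 99.7 of the lists. A further Lama4 site 36.0 kb from the span ranked at percentile 91.6 of WT −Dox and was absent from Mut −Dox. Lama5 had 1, 0, 1, 2 and 1 sites. Lama1 and Lama3 had 1 site each, that of Lama1 in Mut +Dox and that of Lama3 in WT +Dox, with scores of 52.45 and 54.24.

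Among beta chains, Lamb2 and Lamb3 had no site, and Lamb1, the widely expressed chain, had 2, 1, 2, 2 and 3. The Lamb1 site 45.9 kb away (chromosome 12, 31218421 to 31220121) was absent from WT +Dox and scored 60.2, 73.6, 166 and 339 in the other 4 lists. Within those lists it stood at percentiles 16.0, 32.5, 68.7 and 88.7. The next site along had peaks in the 3 +Dox lists, with scores of 63.5, 89.4 and 60.5. Lamc1, the gamma chain of most laminins, had 4, 2, 5, 9 and 8 sites. Inside Lamc1, 2 sites were in the 3 +Dox lists and in neither vehicle list, with scores from 53.7 to 140. A further 2 were in Mut +Dox and WT +Dox +BYK alone, with scores from 72.7 to 115. Lamc3 had 1 site, in the 3 +Dox lists. Per 100 kb of span and flanks, Lamc1 had 4.21 sites and Itgb8 3.99, against a median of 1.34 over the 37 genes and 0.839 over all genes. Some of the Lamc1 sites also lay inside or within 50 kb of another laminin gene and were counted for both.

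**Figure D2:**
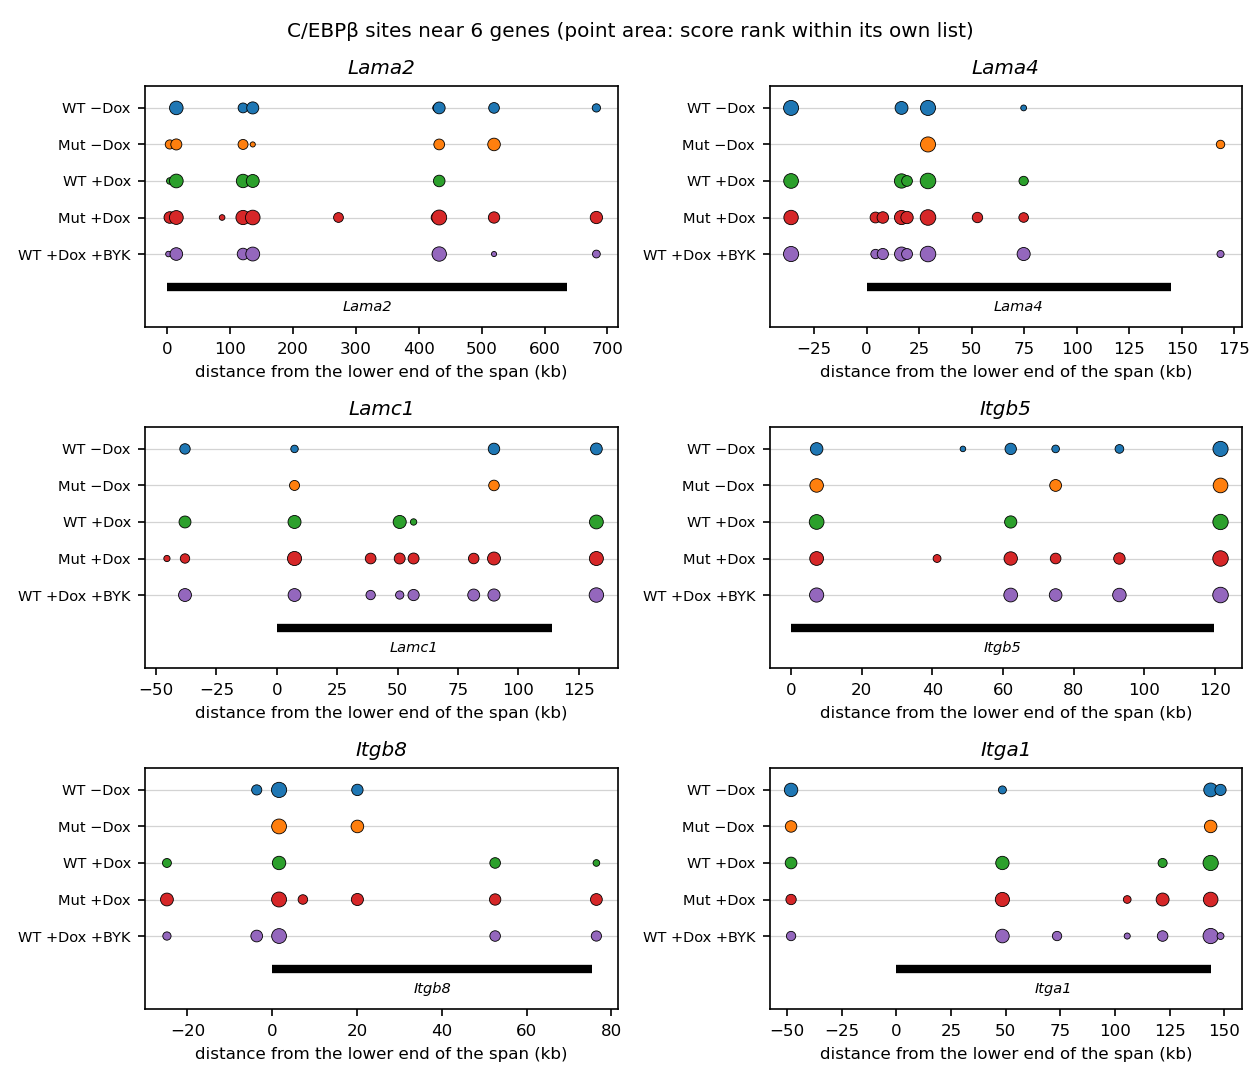
Sites near 6 genes by distance from the lower-coordinate end of the span (x axis, kb), 1 line per deposited list; black bars are gene spans and a point's area follows the score rank of the site within its own list. The Lama4 site at percentiles 92.5 to 99.8 recurs in all lists, whereas the Lama4 site at percentile 91.6 of WT −Dox is missing from Mut −Dox. Mut −Dox shows the fewest points near each of these genes except Itgb5, where WT +Dox has as few, and Lama2, where WT +Dox has fewer.

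The first comparison sets WT cells with doxycycline against WT cells without. Sites near integrin and laminin genes numbered 54 in WT −Dox and 60 in WT +Dox, and 36 of them were in both. Of the 42 sites in 1 of the 2 lists, 24 (57.1%, exact 95% interval 41.0 to 72.3) were in WT +Dox, and the share over all protein-coding genes was 61.3%. More sites in WT +Dox were found at 13 of the 32 genes with a site (40.6%), against 30.1% of 13356 genes, and fewer at 5 (15.6%), against 18.6%. Itga8 was the gene with at least 2 sites more, and Itgb5 and Lama2 had at least 2 fewer. Among all genes 6.96% had at least 2 more and 2.39% at least 2 fewer. The interval of the share near these genes includes an even split.

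Mutant cells had many more sites with the same treatment. There were 35 in Mut −Dox and 90 in Mut +Dox, with 31 in both, and of the 63 in 1 list 59 (93.7%, 84.5 to 98.2) were in Mut +Dox. The share over all genes was 95.2%. At 22 of 32 genes (68.8%) Mut +Dox had more sites, against 63.5% of all genes, and at 2, Itga2b and Itgb7, fewer (6.25%, against 2.70%). At least 2 sites more were found at 12 genes (37.5%), against 27.3% of all genes, and at least 2 fewer at 0, against 0.232%. The surplus was 7 sites at Lamc1, 6 each at Itga8 and Lama4, and 5 at Lama2. Itga6, Itgb5 and Lama2 had fewer sites with doxycycline in WT cells and more in mutant cells, 3 of 32 genes against 11.3% of all genes, and 0 had the opposite pair, against 0.412%. Mut −Dox is the shortest list, and the share near these genes sits close to that of all genes.

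Between the lines without doxycycline, Mut −Dox had 35 sites and WT −Dox 54. Of the 29 sites in 1 of them, 5 (17.2%, 5.85 to 35.8) were in Mut −Dox, against 13.1% over all genes. Mut −Dox had fewer sites at 14 genes (43.8%), where 39.4% of all genes had fewer, and more at 2 (6.25%, against 4.50%). Genes with at least 2 fewer included Itga1, Itga6, Itgb5, Lama4 and Lamc1, and at least 2 fewer were found at 10.2% of all genes, and 0 genes had at least 2 more, against 0.277%.

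Mut +Dox was set against WT +Dox to compare induced proteins with and without the PARylation sites. Mut +Dox had 90 sites, WT +Dox 60, and 54 were shared. Among the 42 in 1 list, 36 (85.7%, 71.5 to 94.6) were in Mut +Dox, and the share over all protein-coding genes was 80.5%, inside that interval. Mut +Dox had more sites at 17 of 32 genes (53.1%), against 40.6% of all genes, and fewer at 3 (9.38%, against 12.2%), namely Itgam, Itgb6 and Lama3. The 37 genes are long, with a median span of 62.5 kb against 17.1 kb over all genes. At least 2 sites more were found at 7 genes (21.9%), against 12.8% of all genes, and at least 2 fewer at 0, against 1.29%. The greatest surplus was at Lama2 (5 in WT +Dox and 11 in Mut +Dox), followed by Lamc1 (5 and 9), and Itga8, Itgb5 and Lama4 were among those with 3 sites more. By family, of the sites in 1 of these 2 lists, 18 near laminin genes were in Mut +Dox and 2 in WT +Dox. Near integrin genes the numbers were 18 and 4, and each family leaned to the same side as the 80.5% over all genes.

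The inhibitor comparison sets WT cells given BYK204165 before doxycycline against WT cells given doxycycline alone. It uses the same WT +Dox list, so its values are given beside those of the mutant and are not an independent repeat. WT +Dox +BYK had 89 sites, of which 55 were also among the 60 of WT +Dox. Of 39 sites in 1 list, 34 (87.2%, 72.6 to 95.7) were with the inhibitor, against 84.3% over all genes. More sites were found at 16 of 32 genes (50.0%, against 49.0%) and fewer at 1, Lama3 (3.12%, against 8.30%). At least 2 sites more were found at 9 genes (28.1%), against 17.0% of all genes, and at least 2 fewer at 0, against 0.644%. Itga1, Itga6, Lama2, Lama4 and Lamc1 had 3 sites more each. Of the sites in 1 of these 2 lists, 21 near integrin genes were in WT +Dox +BYK and 1 in WT +Dox. Near laminin genes the numbers were 13 and 4, again to the same side as all genes.

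**Figure D3:**
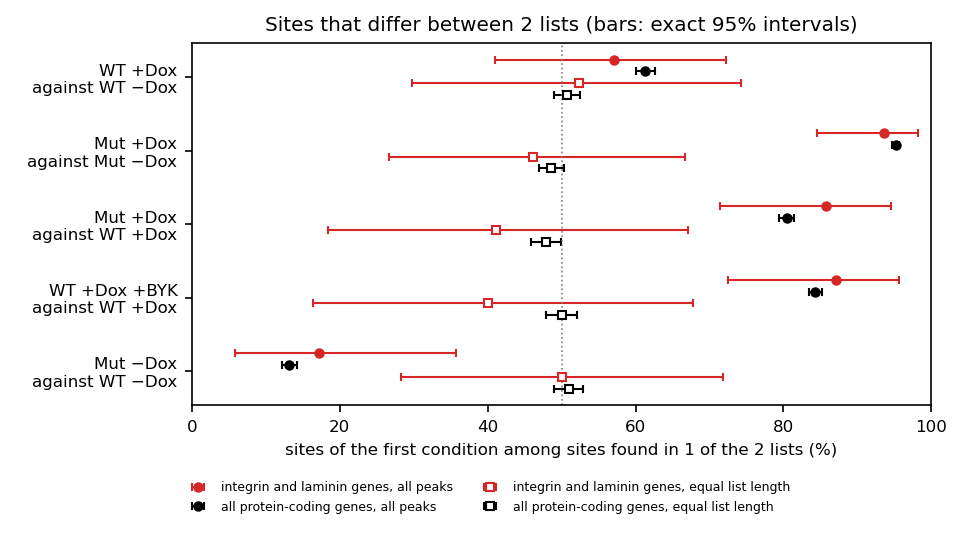
For each of the 5 comparisons (y axis), the share of sites found in 1 of the 2 lists that belong to the first condition (x axis, %), near integrin and laminin genes (red) and near all protein-coding genes (black), with all peaks (circles) and with lists of equal length (open squares); bars are exact 95% intervals. With all peaks each black point lies within the red interval, and at equal length all red intervals include 50%.

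Every list was also shortened to its 6898 highest-scoring peaks. The share of Mut +Dox among sites differing from WT +Dox was then 41.2% (18.4 to 67.1), against 47.9% over all genes. That of WT +Dox +BYK was 40.0% (16.3 to 67.7), against 50.0% over all genes. By construction, equal lengths take away whatever surplus comes with a longer list, so these shares cannot show whether high-scoring peaks held a surplus. With scores of at least 100, the share was 75% (56.6 to 88.5) for Mut +Dox, against 85.7% over all genes. For WT +Dox +BYK it was 78.3% (56.3 to 92.5), against 89.7%.

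Sites that WT +Dox lacked mostly scored below the median of their list. The 36 in Mut +Dox and not in WT +Dox had scores from 51.7 to 211, with a median at percentile 39.8 of the Mut +Dox list. Of these, 8 were above the median of that list. Over all genes the sites in Mut +Dox and not in WT +Dox had a median at percentile 25.3. The 34 in WT +Dox +BYK and not in WT +Dox had a median at percentile 33.5, against 25.0 over all genes. Their scores ranged up to the Lamb1 site at 339. Sites shared with WT +Dox ranked higher, with medians at percentiles 64.2 and 66.9. The 6 sites in WT +Dox that Mut +Dox lacked had a median score of 60.6, where the list began at 50.03.

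**Figure D4:**
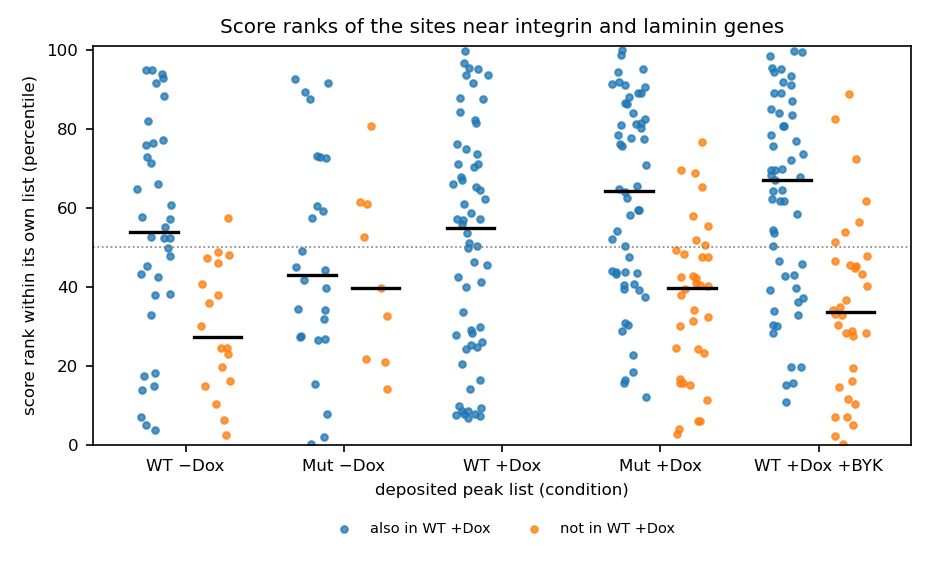
Score rank of each site near integrin and laminin genes within its own list (y axis, percentile) for the 5 lists (x axis), split by whether the site also had a peak in WT +Dox; points are sites, black bars medians. In Mut +Dox the medians are 64.2 for the 54 shared sites and 39.8 for the 36 others, and in WT +Dox +BYK 66.9 and 33.5.

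Across conditions, 24 sites (21.2%, Wilson 14.7 to 29.7) were in all 5 lists, as were 21.8% of all sites, and 28 (24.8%, 17.7 to 33.5) were in a single list, against 30.7%. The next most frequent pattern was a peak in the 3 +Dox lists and in neither vehicle list, at 17 sites (15.0%) against 10.1% of all sites, and it included sites of Itga8, Itgb8, Lamc1 and Lamc3. Mut +Dox alone held 13 sites (11.5%, against 11.9%) and WT +Dox +BYK alone 8 (7.08%, against 13.1%). A further 21 sites (18.6%, against 13.4%) had a peak in a vehicle list and none in WT +Dox. Those present in each list except WT +Dox numbered 5 (4.42%, against 1.79%). They lie inside Lamc1, Lama2 and Itgb5 and near Lamb1 and Itgal, the last on the Sephs2 promoter. None of these shares was tested against the rest of the genome.

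Genes whose products work with integrins and laminins were counted in the same way. Of 24 focal adhesion genes, which link integrins to actin, 21 had a site. In WT +Dox 15 of these (71.4%) had more sites than in WT −Dox and 1 (4.76%) fewer, against 30.1% and 18.6% of all genes. Mut +Dox compared with Mut −Dox gave the same counts, 15 with more and 1 with fewer, against 63.5% and 2.70% of all genes. In Mut +Dox 9 (42.9%) had more than in WT +Dox and 9 (42.9%) fewer, against 40.6% and 12.2%, with 66 and 62 sites. With the inhibitor 10 (47.6%) had more and 3 (14.3%) fewer, against 49.0% and 8.30%, with 76 sites. Ptk2, the focal adhesion kinase gene, had 5 sites in Mut +Dox against 1 in WT +Dox, and Tns3, a tensin gene, 10 against 7. Vcl, which encodes vinculin, Parva and Lims1 each had 2 more in Mut +Dox, and Fermt3, Actn4, Bcar1 and Flna each had 2 fewer. With the inhibitor Vcl and Tns3 had 3 more, Ptk2 and Lims1 2 more, and Actn1, Rsu1 and Flna 1 fewer.

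Of 21 basement membrane and other partner genes, 19 had a site. Mut +Dox had more sites than WT +Dox at 8 of these (42.1%), near the 40.6% of all genes, and fewer at 0, against 12.2%, with 83 and 66 sites. With the inhibitor 11 (57.9%) had more and 0 fewer, against 49.0% and 8.30%, with 91 sites. None of these shares was tested against the rest of the genome. Utrn, which encodes the dystrophin relative utrophin, had 6 sites in WT +Dox and 12 in each of the mutant and inhibitor lists. Ltbp1, which holds latent TGF-β in the matrix, had 11 and 15 in both, and Sgcd, a sarcoglycan gene, 5, 7 and 8. Vcam1, the ligand of the Itga4 integrin, had 3, 4 and 7. The laminin linkers Nid1 and Nid2 had equal numbers in WT +Dox and Mut +Dox, 5 and 6 sites.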

How the data were processed

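C/EBPβ was profiled by ChIP-seq in 20 libraries, 10 ChIP and 10 input, and 5 peak lists were analysed. Bowtie, bedtools and mm10 are named in the submitters' processing notes, and peak names in the deposited files begin with MACS. The sources used here do not give the caller's version or threshold, or how inputs and replicates entered. The deposited score of each peak was set by the authors, on a scale the files do not name.

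Coordinates are 1-based in mm10, and gene spans and promoters came from RefSeq on GRCm38.p6. Of the 37 genes, 14 have no promoter window in the table. Peaks were assigned and merged as stated above, with Python 3.11.15, pandas 2.3.3 and scipy 1.17.1, and percentiles rank a score within its list. Counting was tested on simulated data. Shares carry Wilson or exact Clopper-Pearson 95% intervals for counting error only.

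Values by condition were to be given for genes with at least 4 sites or a difference of at least 2, those holding the 10 highest-ranked sites, and partner genes with the 3 greatest differences against WT +Dox. Others are named for their role or position. Members and lists were chosen with earlier results of these data known. Values of 1 member and 1 partner gene are not reported here, though totals include them. In all, 8 alternative settings were run.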

Additional observations from a re-analysis of the deposited data

Results flagged for a closer look

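At 3 genes doxycycline went with fewer sites in the WT line and more in the mutant line, which is what set them apart. Itgb5 had a difference of -3 sites in WT cells (WT +Dox minus WT −Dox) and of 3 in mutant cells (Mut +Dox minus Mut −Dox). Lama2 had -2 in WT cells and 5 in mutant cells. Itga6 had -1 in WT cells and 3 in mutant cells. The difference between the lines was not tested, since each condition has 1 list. The 3 genes are 9.38% of the 32 with a site, and 11.3% of the 13356 genes with a site had the same pair of directions.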

How the results depend on the processing

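Of the 40 values of the share of differing sites under 8 alternative settings, 35 kept their direction and lay inside the interval of the reported share. Counting only sites inside the gene span gave 100% for Mut +Dox against Mut −Dox. With lists of equal length the share was 46.2% for that comparison, 41.2% for Mut +Dox against WT +Dox, 40.0% for WT +Dox +BYK against WT +Dox and 50.0% for Mut −Dox against WT −Dox. Keeping an equal number of the highest-scoring peaks in each list removes a surplus of the longer list by construction.

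For single genes, 87 differences moved outside the counting interval of the reported difference without changing sign, and 612 did neither. Single genes changed sign in 21 cases, among them those below, and apart from that construction the cause was not tested. At equal length, Mut +Dox minus WT +Dox was -1 at Lamc1. WT +Dox +BYK minus WT +Dox was -2 at Lama2 and -1 at Lamc1, Itga8 and Itga1. Mut +Dox minus Mut −Dox was -2 at Lama2 and -1 at Itgb3. WT +Dox minus WT −Dox was 1 at Itga6 and -1 at Itgb3 and Itgb8. Mut −Dox minus WT −Dox was 2 at Lama2 and 1 at Lamb1. With scores of at least 100, Lamc1 had -1 for Mut +Dox minus WT +Dox, Itga1 -1 for the inhibitor, Itgb5 1 for WT +Dox minus WT −Dox, and Itgb8 and Itgb5 1 for Mut −Dox minus WT −Dox. Itga6 had -1 for Mut +Dox minus WT +Dox inside the span and within 10 kb.

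Genes with more sites in Mut +Dox than WT +Dox numbered 8 inside the span, 9 within 10 kb and 4 at equal length, against 17, and those with fewer 6 with scores of at least 100 and 8 at equal length, against 3. With the inhibitor the numbers with more were 6, 9 and 6, against 16, and with fewer 2 within 100 kb, 3 with scores of at least 100 and 9 at equal length, against 1. For Mut +Dox against Mut −Dox, 13 had more inside the span and 5 at equal length, against 22, and fewer ranged from 0 to 6, against 2. For WT +Dox against WT −Dox, 7 had more at equal length, against 13, and fewer ranged from 2 to 6, against 5. For Mut −Dox against WT −Dox, more ranged from 0 to 5, against 2. Those with fewer numbered 7, 8 and 6 inside the span, within 10 kb and at equal length, against 14. Near the integrin and laminin genes, 64 sites lay inside the span, 74 within 10 kb and 180 within 100 kb, against 113. Scores of at least 100 left 65 sites and equal length 58. The genes with a site and the shares of all genes are not given under these settings. How far the lower counts follow the number of sites was not tested.

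No paired analysis was possible because each condition has a single list that carries no replicate number, and the settings that leave out a replicate were not run for the same reason. Depth is unknown, and a missing peak and one below the calling threshold cannot be told apart.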

Other observations

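The AP-1 sequence TGANTCA was found in promoter windows of Itga3, Itga9 and Itgax, 3 of the 26 windows, and none of these windows was touched by a site. The Lama4 site farthest along the chromosome covered the windows of the neighbours Fam229b and Tube1, with a peak in Mut −Dox (score 63.1) and in WT +Dox +BYK (score 57.7). Of the 36 sites in Mut +Dox and not in WT +Dox, 12 had a peak in a vehicle list, against 1740 of 7000 over all sites. Of the 34 in WT +Dox +BYK and not in WT +Dox, 15 had one, against 1701 of 7242. These differences were not tested.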
